A study of Homo sapiens with 6 samples.

Results

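PSMB6 and PSMB9 encode the constitutive and the interferon-inducible form of the proteasome subunit beta1, and these 2 genes were chosen by symbol from the 414 genes listed in the deposited table. The choice was made with their difference between parental and knockout cells already known, so their levels, their ratio and their differences are a description, and no p-value is given for them. The cells were KLE, an established human endometrial carcinoma line. The parental group was wild type for LATS1 and LATS2 (3 libraries), and the LATS1/2-KO group carried CRISPR/Cas9 knockouts of both genes, made with LATS1 guide 1 and LATS2 guide 2 (3 libraries, numbered 5, 6 and 7). The knockout cells had been grown out from single cells by limiting dilution after puromycin selection, so effects of the knockout and of growth from a single cell cannot be told apart here, and whether the 3 libraries came from 1 clone is not given in the sources used here. LATS1 and LATS2, the kinases of the Hippo pathway, were not analysed here, so the knockout itself was not checked on its own counts.

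The proteasome is the barrel-shaped protease that degrades ubiquitin-tagged proteins, and its inner rings are made of beta subunits of which beta1, beta2 and beta5 cut peptides. PSMB6 supplies beta1 in the constitutive particle. In cells exposed to interferon-gamma, PSMB9 (beta1i, also called LMP2) can take that place together with the inducible beta2i and beta5i subunits, and the resulting immunoproteasome changes the mix of peptide ends offered to TAP and MHC class I. The ratio of PSMB9 to PSMB6 transcripts is therefore a simple readout of which beta1 mRNA a cell holds, and because both counts come from the same library it needs no scaling between libraries.

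PSMB6 (ENSG00000142507.10_4) lies on chromosome 17 from 4796144 to 4798503 on the plus strand of GRCh38, and its principal transcript of 852 bases has 6 exons. PSMB9 (ENSG00000240065.8_5) spans 32844136 to 32859585 on the plus strand of chromosome 6, inside the MHC, and its principal transcript of 782 bases also has 6 exons. The coding sequences align over 660 bases with 65.3% identity. To show how well reads of 150 bases can tell the genes apart, the place where the coding sequences are most alike is printed with 30 bases on either side. Capitals mark the longest run of identical bases, 16 bases long, which lies in exon 2 of both genes (chr17:4796747-4796762 and chr6:32856157-32856172, GRCh38 plus strand) and is preceded by the end of exon 1.
PSMB6: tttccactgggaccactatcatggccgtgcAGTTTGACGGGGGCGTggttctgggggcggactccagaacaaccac
PSMB9: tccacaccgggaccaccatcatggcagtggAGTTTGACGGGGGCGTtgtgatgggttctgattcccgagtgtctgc
No stretch near the length of a read was shared by the coding sequences. The annotated span of PSMB9 overlaps that of TAP1 on the opposite strand, and whether the counting used strand is not given in the sources used here, so part of a PSMB9 count could belong to its neighbour.

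PSMB9 and TAP1, a subunit of the transporter that carries peptides into the endoplasmic reticulum, start head to head from a shared promoter region. The 182 bases between the GENCODE starts of their principal transcripts (chr6:32853979-32854160, RefSeq sequence, GRCh38.p14, PSMB9 strand) are shown because they lie between these starts and hold no part of either of these transcripts.
PSMB9 upstream: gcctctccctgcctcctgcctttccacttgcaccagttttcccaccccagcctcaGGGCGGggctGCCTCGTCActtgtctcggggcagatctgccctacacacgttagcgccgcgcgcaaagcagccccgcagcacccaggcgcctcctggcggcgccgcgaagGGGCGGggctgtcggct
Capitals mark 2 GC boxes (GGGCGG on either strand, found in 45.0% of 35114 promoter windows of 300 bases) and 1 match to the antioxidant response element TGACNNNGC on the reverse strand (13.3% of windows). The stretch was 70.3% G and C. The PSMB9 window, 250 bases before to 50 after its RefSeq start, held no match to the gamma-activated site TTCNNNGAA (7.66% of windows) or the TEAD motif GGAATG (14.0%), and 1 match to CCAAT (34.6%). No interferon-stimulated response element core, a pair of GAAA words with any bases at the 2 positions between them, was in it either (3.57% of windows). A pair of overlapping cores lay 323 bases before the GENCODE start of PSMB9. It is shown in capitals as the interferon motif nearest to PSMB9 in the windows searched (chr6:32853816-32853845, PSMB9 strand). It lies upstream of the TAP1 start of the RefSeq window searched and within the principal TAP1 transcript of GENCODE, whose start is placed nearer to PSMB9.
Core pair: tttagggGAAAGCGAAATCGAAAgcggccg
These matches are a description of letters and not of binding. A window for PSMB6 was not analysed here.

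Summed over the table, a parental library held 3008692 to 4064052 counts and a LATS1/2-KO library 613161 to 1862422. The table holds genes called by the study beyond a 2-fold difference, and no unchanged gene, so the scale between the groups was set at the middle of the empty interval that this selection leaves between the genes that were higher and those that were lower. Calls made here on the same contrast are not independent of that selection. Parental replicate 1 stood apart from replicates 2 and 3. Among 323 genes with at least 50 counts in a parental library, 108 (33.4%) were more than 2-fold higher in it than in the mean of replicates 2 and 3. Some of these genes reached 50 counts in replicate 1 alone, which can raise this share. Over the 323 genes, the median log2 ratio of replicate 1 to that mean was 0.15. The levels and the ratio of both members are therefore given with and without parental replicate 1. Against replicates 2 and 3, 224 listed genes were higher and 190 lower in the knockout. These are also the numbers of upregulated and downregulated genes that the study reported. The list may thus have been made without replicate 1, and results that hold without it may follow from the listing. Of markers of other cell types, 0 of 14 leukocyte, 0 of 8 stromal and 0 of 4 endothelial genes were among the listed genes, and of 7 epithelial markers KRT19 was listed. A marker missing from the table was not listed as changed, which does not tell whether it was expressed. The purity of the cells could therefore not be checked. KRT19 had 21078 to 26632 scaled counts in parental and 11080 to 12530 in LATS1/2-KO cells (log2 fold change -1.09 ± 0.14 SE, edgeR adjusted p = 0.00206, and -1.19 without parental replicate 1), and it was not called with TMM or total counts.

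On the scale used here, PSMB6 was 2.45-fold lower in LATS1/2-KO cells. PSMB9 was, on the same scale, 2.36-fold higher than in parental replicates 2 and 3 but lower than in parental replicate 1. The size of both differences depended on the scale. The PSMB9 to PSMB6 ratio was higher in each LATS1/2-KO library than in each parental library, replicate 1 included.

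PSMB6, the constitutive beta1, was counted 102509, 71557 and 65646 times in parental replicates 1, 2 and 3. In LATS1/2-KO libraries 5, 6 and 7 it was counted 40581, 12395 and 19505 times. Scaled for library size, PSMB6 stood at 69773, 57641 and 65984 in parental replicates 1 to 3, and at 30409, 24947 and 23467 in the knockout libraries. The groups did not overlap, and the lowest parental value was 1.90-fold above the highest knockout value. The mean was 64466 ± 6207 scaled counts in parental cells (SD, n = 3) and 26274 ± 3656 in LATS1/2-KO cells (SD, n = 3), a log2 difference of means of -1.29. Without parental replicate 1 the difference was -1.23. Parental replicate 1 was the highest for PSMB6, at 1.13-fold of the mean of the other two. Of the listed genes, 183 of 414 (44.2%) had knockout values below every parental value.

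The size of the PSMB6 difference rests on the scale. PSMB6 made up 2.18% to 2.52% of the counts over the listed genes in the parental libraries and 1.65%, 2.02% and 2.18% in the knockout libraries. Scaled by these totals, the log2 difference of means of PSMB6 was -0.24 instead of -1.29. TMM gave -0.63 and median-of-ratios size factors -0.77. Against the interval-based scale, these 3 methods moved the knockout up by 1.05, 0.66 and 0.52 on the log2 scale, as a mean over libraries. The direction for PSMB6 was the same under each.

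**Figure D1:**
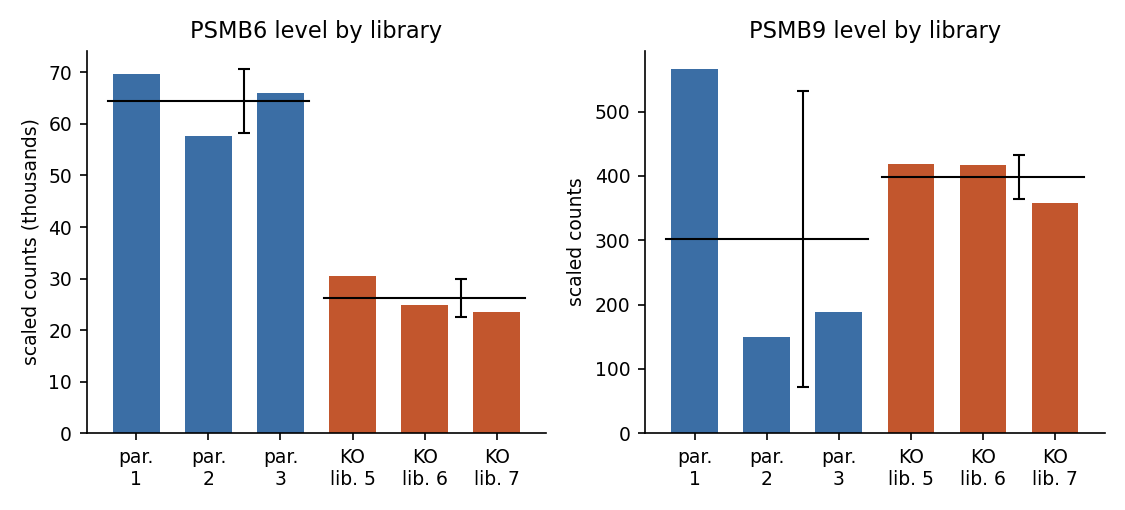
Scaled counts (y axis, divided by 1000 for PSMB6) of PSMB6 and PSMB9 in each library (x axis: par., parental replicates 1 to 3; KO, LATS1/2-KO libraries 5 to 7). Bars are single libraries, horizontal lines are group means and error bars are the SD (n = 3); the knockout bars of PSMB6 reach at most 30409 and the parental ones at least 57641, whereas for PSMB9 parental replicate 1 stands above every other bar.

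PSMB9, the inducible beta1i, was counted 832, 185 and 188 times in parental replicates 1, 2 and 3. In LATS1/2-KO libraries 5, 6 and 7 it was counted 559, 207 and 298 times. Scaled, PSMB9 stood at 566, 149 and 189 in parental replicates 1 to 3, and at 419, 417 and 359 in the knockout libraries. Parental replicates 2 and 3 were the lowest of the 6 libraries and parental replicate 1 the highest, so the groups overlapped. The mean was 301 ± 230 scaled counts in parental cells (SD, n = 3) and 398 ± 34.2 in LATS1/2-KO cells (SD, n = 3), with a log2 difference of means of 0.40. This difference was smaller than the spread between the parental replicates. It was 1.09 with TMM, 0.99 with median-of-ratios size factors and 1.46 with total counts.

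Without parental replicate 1, the parental mean of PSMB9 was 169 ± 28.2 scaled counts (SD, n = 2) and the log2 difference was 1.24, or 2.36-fold. The groups then did not overlap, and the lowest knockout value was 1.90-fold above the highest parental value. This was also so for 211 of 414 listed genes (51.0%) when replicate 1 was left out, and for 148 (35.7%) with all libraries. When counts were expressed as a share of the total over the listed genes, PSMB9 took 0.0205%, 0.00569% and 0.00625% in the parental libraries and 0.0300%, 0.0338% and 0.0252% in the knockout libraries, without overlap. The position of parental replicate 1 relative to the knockout libraries thus depended on the scale.

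**Figure D2:**
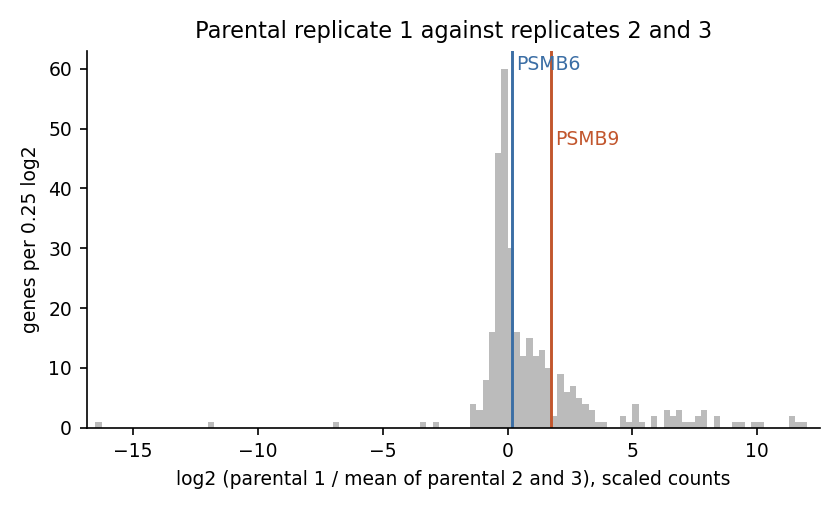
Distribution over 323 genes with at least 50 counts in a parental library of the log2 ratio of parental replicate 1 to the mean of parental replicates 2 and 3 (x axis, scaled counts; y axis, genes per bin of 0.25 log2). The vertical lines mark PSMB6 at 0.17, near the bulk of the genes, and PSMB9 at 1.74, the 74th highest of the 323. Some genes with high ratios reached 50 counts in replicate 1 alone.

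PSMB9 was 3.34-fold higher in parental replicate 1 than in the mean of replicates 2 and 3, the 74th highest departure among the 323 genes. Of 224 genes that were higher in LATS1/2-KO cells than in parental replicates 2 and 3, 42 (18.8%) were like PSMB9 in that parental replicate 1 exceeded every knockout library. What set this library apart was not tested. In bulk RNA, a higher PSMB9 level in all cells and a larger number of cells with PSMB9 cannot be told apart.

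The ratio set the members against each other within each library. In parental replicates 1, 2 and 3 there were 0.812, 0.259 and 0.286 PSMB9 counts per 100 PSMB6 counts. In LATS1/2-KO libraries 5, 6 and 7 there were 1.38, 1.67 and 1.53. Put the other way, a PSMB9 count stood against 387 and 349 PSMB6 counts in parental replicates 2 and 3, against 123 in parental replicate 1, and against 72.6, 59.9 and 65.5 in the knockout libraries. The knockout libraries were all high, parental replicates 2 and 3 were low, and parental replicate 1 lay between them and overlapped neither.

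The ratio averaged 0.452 ± 0.312 PSMB9 counts per 100 PSMB6 counts in parental cells and 1.53 ± 0.146 in LATS1/2-KO cells (SD, n = 3 each). On the log2 scale the mean ratio was higher in the knockout by 1.96 ± 0.53 (SE), or 3.88-fold. Without parental replicate 1 it was higher by 2.48 ± 0.11 (SE), or 5.59-fold, with a parental mean of 0.272 ± 0.0197 (SD, n = 2). The lowest knockout ratio was 1.70-fold above that of parental replicate 1 and 4.81-fold above the higher of the other two. The difference in mean log2 ratio was made up of a PSMB6 part of -1.30 and a PSMB9 part of 0.66 with all libraries, and of -1.24 and 1.24 without parental replicate 1. How the difference divides between the genes depends on the scale, whereas the ratio itself does not.

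Counting error was small beside these differences. The PSMB9 share of the summed PSMB6 and PSMB9 counts was 0.805% in parental replicate 1 (95% Wilson interval 0.752% to 0.861%), 0.258% in replicate 2 (0.223% to 0.298%) and 0.286% in replicate 3 (0.248% to 0.329%). It was 1.36% in LATS1/2-KO library 5 (1.25% to 1.48%), 1.64% in library 6 (1.43% to 1.88%) and 1.50% in library 7 (1.34% to 1.68%). The intervals of no knockout library reached that of any parental library. The intervals cover counting error alone and not differences between cultures or library preparations. Any gene that fell less than PSMB6 gains on it, and the ratio to PSMB6 was higher in every knockout than in every parental library for 186 of 413 other genes (45.0%).

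**Figure D3:**
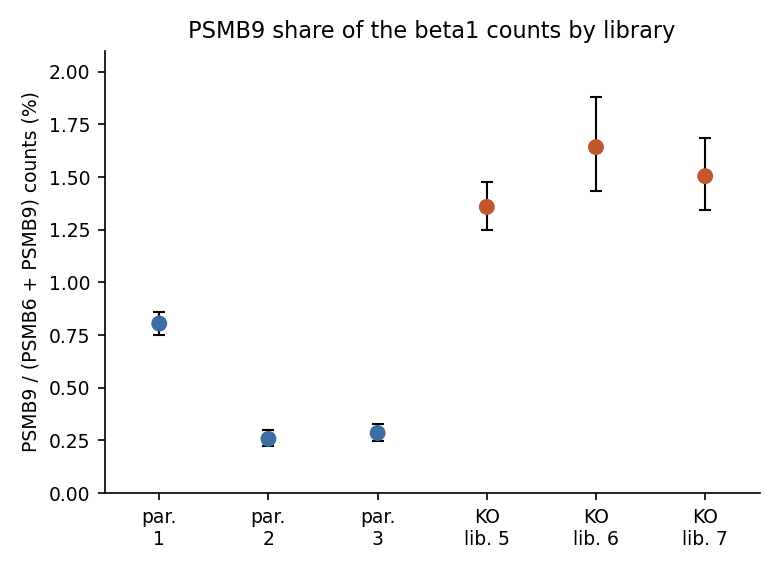
PSMB9 as a percentage of the summed PSMB6 and PSMB9 counts (y axis) in each library (x axis: par., parental replicates 1 to 3; KO, LATS1/2-KO libraries 5 to 7), with 95% Wilson intervals as error bars. Parental replicates 2 and 3 lie near 0.3%, parental replicate 1 at 0.805% and the knockout libraries between 1.36% and 1.64%.

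Per kilobase of transcript, PSMB6 remained far above PSMB9 in every library. PSMB6 had 67654 to 81893 scaled counts per kb in parental cells (67654 to 77446 without replicate 1) and 27544 to 35691 in LATS1/2-KO cells. PSMB9 had 191 to 724 scaled counts per kb in parental cells (191 to 242 without replicate 1) and 458 to 536 in LATS1/2-KO cells. By mean scaled counts per kb PSMB6 ranked 8th of 410 genes with an annotated length in both groups, and PSMB9 ranked 93rd in parental and 80th in knockout cells. Even where the ratio was highest, in LATS1/2-KO library 6, there were 1.82 PSMB9 for every 100 PSMB6 on this per-length scale.

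**Figure D4:**
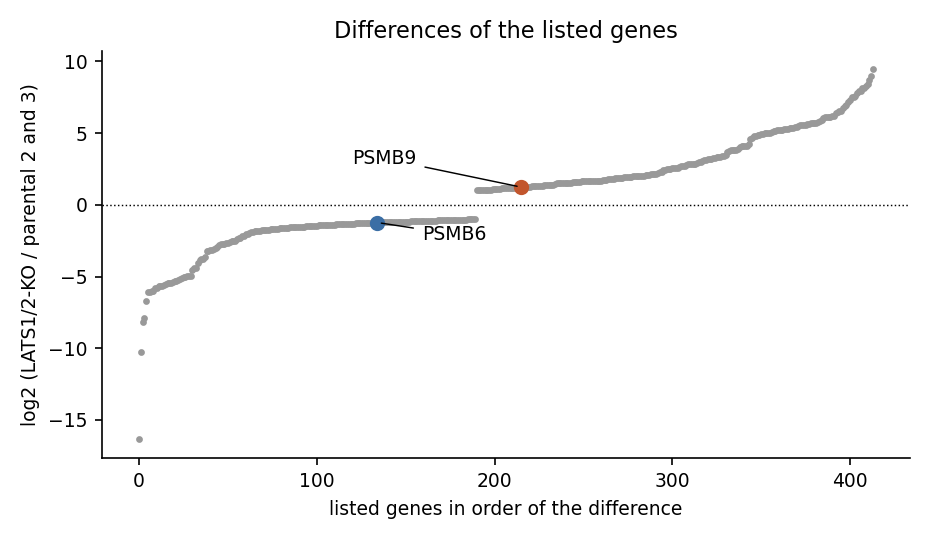
Log2 difference between LATS1/2-KO cells and parental replicates 2 and 3 (y axis, scaled counts) for the 414 listed genes in order (x axis), with the members marked. PSMB6 at -1.23 and PSMB9 at 1.24 both lie near the empty interval around 0 that the selection of the table left.

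Among the 190 genes that were lower against parental replicates 2 and 3, the median log2 difference was -1.50, beside -1.23 for PSMB6. Among the 224 that were higher the median was 2.55, beside 1.24 for PSMB9. Both members thus belonged to the genes of the table with small differences.

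Of 51 other genes of the proteasome and its regulators that were looked for, 0 were in the table. These were the other 20S core subunits (14 genes), the other inducible and thymic beta subunits (3), the 19S regulator (22) and the activators and assembly factors (12). PSMB8 and PSMB10, which encode beta5i and beta2i, are among them and were not analysed here. PSMB6 and PSMB9 were the 2 symbols in the table that begin with PSM. Unlisted genes were not available, so the share of all genes that were listed cannot be set beside these counts. The counts therefore do not show that the difference is particular to beta1.

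Of 15 genes looked for that load or form MHC class I, 3 were in the table and all 3 fell (edgeR's quasi-likelihood test, Benjamini-Hochberg adjusted p under the threshold of 0.05), beside 180 of 414 listed genes (43.5%) that were called lower. As the study had listed these genes for a difference between the same groups, passing this test is not independent evidence. The median log2 difference of the 3 genes was -1.53, beside -0.35 over all listed genes. HLA-B, a heavy chain that presents peptides to CD8 T cells, had 3381, 3432 and 3474 scaled counts in parental cells and 1137, 1226 and 1055 in knockout cells. Its log2 fold change was -1.59 ± 0.11 (SE; adjusted p = 0.000364 by edgeR), and parental replicate 1 did not stand apart. HLA-C, a further classical heavy chain, fell by 1.44 and the non-classical HLA-F by 1.53 on the log2 scale (edgeR adjusted p = 0.000364 and 0.00461). The call was lost for HLA-F with TMM (edgeR adjusted p = 0.0569) and total counts (0.159), and for HLA-C with total counts (0.0649). Without parental replicate 1 the log2 fold changes of HLA-B, HLA-C and HLA-F were -1.60, -1.42 and -1.57.

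Set against PSMB6 within each library, the 3 class I genes overlapped between the groups. HLA-C had 8.73 to 10.4 counts per 100 PSMB6 counts in parental cells and 7.39 to 9.22 in LATS1/2-KO cells. HLA-B had 4.85 to 5.95 and 3.74 to 4.91. Set against the same genes, PSMB9 was higher in every knockout library for all 3. PSMB9 was higher and these genes lower than in parental replicates 2 and 3, so a higher ratio than in those replicates follows from the listing. The share of all listed genes for which this held was not computed. There were 4.34 and 5.44 PSMB9 counts per 100 HLA-B counts in parental replicates 2 and 3, 16.7 in parental replicate 1, and 34.0 to 36.8 in the knockout libraries. Beside HLA-C, PSMB9 had 2.48 to 9.21 counts per 100 in parental and 16.6 to 18.97 in knockout cells. These ratios need no scale between libraries.

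Of 47 interferon response genes looked for, 8 were in the table, of which 5 rose and 3 fell by the same test, beside 123 of 414 listed genes (29.7%) called higher. IFIT1, IFIT2 and IFIT3, which bind viral RNA or the complexes that sense it, rose by 1.74, 1.98 and 1.80 on the log2 scale (edgeR adjusted p = 0.00171, 0.000364 and 0.000364). DDX58, the RNA sensor RIG-I, rose by 1.19 and DDX60L by 1.24 (adjusted p = 0.00911 and 0.0105). OAS1, which makes the second messenger of the RNase L pathway, fell by 2.04, IFI27L2 by 1.24 and IFI30, the thiol reductase of the class II pathway, by 0.97 (adjusted p = 0.00324, 0.00712 and 0.00522). With total counts OAS1 (edgeR adjusted p = 0.0666) and IFI27L2 (0.658) lost the call, IFI27L2 also with TMM (0.0682), and IFI30 was not called with TMM, median-of-ratios factors or total counts (0.185, 0.0987 and 0.727). The sign for IFI30 turned to 0.092 when libraries were scaled by total counts. Without parental replicate 1 the log2 fold changes of IFIT1, IFIT2, IFIT3, DDX58 and DDX60L were 1.62, 1.99, 1.77, 1.15 and 1.08, and those of OAS1, IFI27L2 and IFI30 were -1.70, -1.13 and -1.09. All 8 genes kept their call without this library, which is no separate check if the list was made without it. IRF1 and NLRC5, known regulators of PSMB9 and class I genes, were among the 47 genes looked for. They were not in the table, so their levels were not analysed here.

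In parental replicate 1 these interferon genes were closer to replicates 2 and 3 than PSMB9 was. IFIT2 was 1.02-fold and IFIT3 0.944-fold of their mean, and the farthest was OAS1 at 1.82-fold, beside 3.34-fold for PSMB9. Against IFIT2, PSMB9 was lower in every knockout library, with 9.16 to 11.8 counts per 100 IFIT2 counts beside 15.9 to 59.2 in parental cells. Against OAS1 it was higher, with 201 to 261 counts per 100 beside 24.0 to 53.4. Over the 8 genes, the PSMB9 count relative to the gene was higher in the knockout for 3, lower for 2 and overlapped for 3. This split was not computed over all listed genes.

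By the SD over the 6 libraries of the log2 count ratio to a member, the 5 genes most like PSMB6 among 185 other genes with a symbol and at least 50 counts in each library were GPS2, NAA38, CIB1, TIMP1 and ORMDL2. Their SDs were 0.06, 0.07, 0.11, 0.11 and 0.13, beside a median of 0.83 over the 185 genes. GPS2, a subunit of a nuclear corepressor complex, had 5005, 3205 and 3048 counts in the parental and 1819, 609 and 940 in the knockout libraries. Its ratio to PSMB6 was thus nearly constant while both counts varied with the library.

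The 5 genes most like PSMB9 were PRKAG2, CPPED1, LIMA1, ANKHD1 and FBLIM1, with SDs of 0.28, 0.29, 0.31, 0.35 and 0.36 beside a median of 1.18. PRKAG2, a regulatory subunit of AMP-activated kinase, had 477 counts in parental replicate 1, 111 and 67 in replicates 2 and 3, and 312, 112 and 135 in the knockout libraries. Each of these 5 genes was higher in parental replicate 1 than in replicates 2 and 3, as PSMB9 was. This follows from choosing them for likeness to PSMB9 over the same libraries. The SD of the log2 ratio between PSMB6 and PSMB9 themselves was 1.22, the 104th smallest of 185 from the side of PSMB6. Likeness was measured on 6 libraries and is a description.

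**Figure D5:**
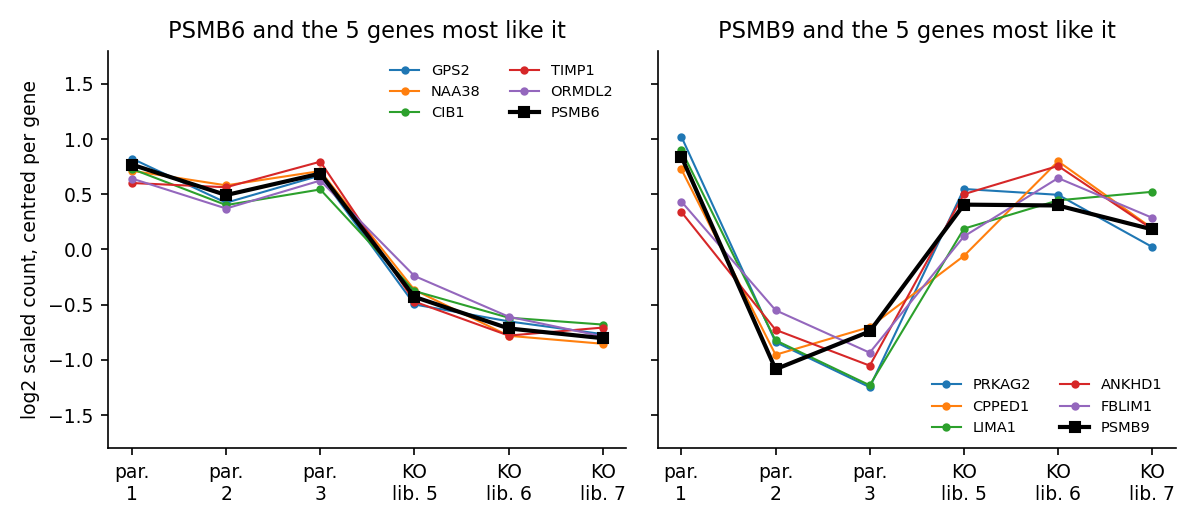
Log2 scaled counts, centred on each gene's mean (y axis), of PSMB6 (left, black) and PSMB9 (right, black) and the 5 genes most like each of them (colours) in each library (x axis: par., parental replicates 1 to 3; KO, LATS1/2-KO libraries 5 to 7); lines link the values of 1 gene and imply no order of libraries. The PSMB6 panel steps down from parental to knockout libraries, and in the PSMB9 panel parental replicates 2 and 3 are the low values of every gene. The genes were chosen for this likeness.

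PSMB6 and its closest matches GPS2 and NAA38 are all on chromosome 17. CIB1, TIMP1 and ORMDL2, the next closest, are on chromosomes 15, X and 12. Within 1 Mb of PSMB6 the table held 3 of the 52 other protein-coding genes annotated there, CAMKK1, ENO3 and SPAG7. Their log2 differences were -1.05, -2.20 and -1.52 with all libraries, and -1.32, -2.32 and -1.07 without parental replicate 1. ENO3, the muscle enolase, and SPAG7 were called lower over all libraries (edgeR adjusted p = 0.00062 and 0.0124), and CAMKK1 was not (adjusted p = 0.0725). Within 5 Mb, a distance chosen after the values were seen, 20 of 25 listed genes around PSMB6 (80.0%) and 8 of 9 around PSMB9 (88.9%) were lower than in parental replicates 2 and 3, beside 45.9% of all listed genes. PSMB9 itself was higher in that comparison. Among the lower genes were GPS2 and NAA38 around PSMB6, and HLA-B, HLA-C and HLA-F around PSMB9, which are described above. These counts are therefore not separate from those results. Within 1 Mb of PSMB9 the table held no gene, and the nearest was 1130 kb away.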

How the data were processed

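RNA was measured in 3 parental and 3 LATS1/2-KO KLE libraries made from oligo-dT-primed cDNA and sequenced as paired reads of 150 bases. The submitters' processing notes name cutadapt, HISAT2, StringTie, DESeq2 and the genome build hg19, without versions, and the counting step is not given in the sources used here. The authors deposited 1 table of 414 genes with whole, unnormalized counts, which were used as deposited. A further 6 per-sample columns and the authors' columns of fold changes and p-values were not used. Parental columns were matched to replicates by number. The knockout columns are numbered 5, 6 and 7, unlike the replicate labels, and were used as libraries of the group.

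PSMB6, PSMB9 and the gene lists were chosen with earlier results of these data known, and the counts had been seen in the paper's supplement. Named genes were the members, listed genes of pathways present in the table (some are not reported here), genes within 1 Mb of a member and, for each member, the 5 genes with the smallest SD of the log2 count ratio, after adding 0.5. Size factors were medians of ratios within a group over genes that reached 50 counts in each of its libraries. Between groups they were set to the middle of the widest empty interval of log2 ratios of parental replicates 2 and 3 to the knockout libraries. The search left out 5% of genes at each end, a limit added after leaving out parental replicate 3 had picked a gap beside an extreme gene; the interval with all libraries is the same without it. This assumes that the table was selected symmetrically, which could not be checked on unlisted genes. Calls used edgeR 4.0.16 in R 4.3.3 (quasi-likelihood test, no covariates, Benjamini-Hochberg over the 414 genes, adjusted p under 0.05). This test was first run on simulated data with known size factors, unchanged genes and no deviant replicate. The deposited data differ in each of these, so that run does not vouch for the calls. All 414 genes had been selected by the study on the same contrast, so the calls are not an independent check. The labels do not say that replicates were separate cultures, so p-values measure the spread between these libraries, which may be technical. Shares have 95% Wilson intervals (scipy 1.17.1). Positions, lengths and coding sequences are from GENCODE version 29 on GRCh38, to which 410 of 414 identifiers matched without version, and promoter windows are from RefSeq (GRCh38.p14).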

Additional observations from a re-analysis of the deposited data

How the results depend on the processing

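The PSMB6 log2 difference of -1.29 kept its sign under every alternative and was -0.63 with TMM, -0.77 with median-of-ratios size factors and -0.24 with total counts. Leaving out 1 library gave -1.43 to -1.24. The PSMB9 difference of 0.40 was 1.46 with total counts and 1.14 with medians in place of means, and leaving out 1 library gave 0.049 to 1.23, the highest without parental replicate 1. The log2 ratio difference of 1.96 ranged from 1.66 to 2.48 over the libraries left out, and was 1.55 from summed counts and 2.42 from medians. Calls were 123 higher and 180 lower. Leaving out 1 library gave 100 to 213 higher calls, with 213 without parental replicate 1. TMM gave 139 higher and 84 lower calls, median-of-ratios size factors 141 and 132, total counts 142 and 50, and DESeq2 1.42.0 on the same scale 133 and 179. Of 156 values for the 12 other named pathway and marker genes, 145 kept their side of the threshold, 10 lost the call with TMM, median-of-ratios factors or total counts, and IFI30 turned from -0.97 to 0.092 with total counts. No paired analysis was possible because the knockout columns are numbered 5, 6 and 7 and the parental ones 1, 2 and 3. The depth limits PSMB9, with 185 to 832 counts, more than PSMB6, with 12395 to 102509.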
